A study of Homo sapiens with 8 samples.

Results

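The regions described here are OCT4 peaks of chromatin immunoprecipitation with sequencing in H9 and NT2/D1 cells. Peaks of the H9 OCT4 library (29575) and of the NT2/D1 OCT4 library (46169) were joined into 1 region wherever they shared 1 bp or more. This gave 67808 regions from 75744 peaks, out of 148059 regions from 201619 peaks when all 6 factor lists of the study were merged. Of the 67808 regions, 7659 (11.3%) held a peak of both lists and are called shared, 21861 (32.2%) held only H9 peaks and 38288 (56.5%) held only NT2/D1 peaks. H9 is an established line of embryonic stem cells. NT2/D1 is an established line of embryonal carcinoma cells from a human germ cell tumour. The study mapped OCT4, SOX2 and NANOG, with an IgG background, in untreated cells of the 2 lines, and each factor had 1 library in each line. No replicates existed, so no test between the lines was possible, and the 95% Wilson intervals given with shares cover counting error only. Peak lists hold no expression, so the cell types could not be checked against markers.

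OCT4 (POU5F1) is a POU domain transcription factor that binds the octamer motif and is required for the pluripotent state of the early embryo and of embryonic stem cells. It often binds next to SOX2 at a composite element made of a SOX site and an octamer, frequently with NANOG at the same enhancer. Embryonal carcinoma cells are the stem cells of germ cell tumours and share this core circuit with embryonic stem cells, and they are aneuploid tumour cells. A peak called in one line shows enrichment over the IgG library there, and the lack of a call does not show the lack of binding.

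The promoters of 8 genes are shown, each of a gene with a shared OCT4 region that overlapped a transcription start site (TSS) or lay within 250 bp. Those distances are the authors' and can refer to another start of the gene. The sequences are the 250 bases before the gene start from RefSeq (GRCh38.p14), read 5′ to 3′ on the strand of the gene. Peaks are in hg19 and the builds were not aligned, so whether a sequence lies inside its region was not checked. The capitals mark matches, on either strand, to the octamer ATGCAAAT or to TTGTNATGC, where a SOX site and the octamer stand side by side. The first 4 were the octamer-holding promoters whose shared region ranked highest in both lists. They were PIPOX (chr17:29042891-29043140, plus strand), which encodes pipecolic acid oxidase, and the histone genes H2BC4 (chr6:26123927-26124176, minus strand), H2BC8 (chr6:26216689-26216938, minus strand) and H2BC17 (chr6:27893175-27893424, plus strand).
PIPOX: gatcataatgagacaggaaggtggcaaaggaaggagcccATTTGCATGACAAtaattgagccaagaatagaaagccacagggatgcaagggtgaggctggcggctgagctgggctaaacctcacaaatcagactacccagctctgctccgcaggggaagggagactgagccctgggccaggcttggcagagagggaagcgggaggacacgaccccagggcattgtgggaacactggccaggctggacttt
H2BC4: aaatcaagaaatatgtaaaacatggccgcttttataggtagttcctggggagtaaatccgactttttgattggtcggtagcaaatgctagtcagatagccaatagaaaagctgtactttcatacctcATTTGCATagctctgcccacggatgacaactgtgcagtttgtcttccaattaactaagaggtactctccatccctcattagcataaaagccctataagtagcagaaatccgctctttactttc
H2BC8: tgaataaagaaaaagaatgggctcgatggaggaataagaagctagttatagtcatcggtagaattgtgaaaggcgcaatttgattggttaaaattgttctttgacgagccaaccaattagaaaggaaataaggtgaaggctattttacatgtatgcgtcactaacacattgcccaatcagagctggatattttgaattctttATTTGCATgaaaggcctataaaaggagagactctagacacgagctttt
H2BC17: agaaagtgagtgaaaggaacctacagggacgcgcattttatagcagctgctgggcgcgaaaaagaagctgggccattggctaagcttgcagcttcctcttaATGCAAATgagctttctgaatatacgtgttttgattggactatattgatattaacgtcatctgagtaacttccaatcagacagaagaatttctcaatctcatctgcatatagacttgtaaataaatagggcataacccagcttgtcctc
NANOG (chr12:7789152-7789401, plus strand), the homeodomain factor of the core circuit, and HOXB1 (chr17:48531012-48531261, minus strand), a hindbrain patterning gene, were added after their matches were seen, because both hold the composite motif.
NANOG: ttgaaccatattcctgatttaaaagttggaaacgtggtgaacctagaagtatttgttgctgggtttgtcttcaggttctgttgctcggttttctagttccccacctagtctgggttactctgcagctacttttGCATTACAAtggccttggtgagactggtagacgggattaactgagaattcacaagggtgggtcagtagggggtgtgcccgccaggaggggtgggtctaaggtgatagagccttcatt
HOXB1: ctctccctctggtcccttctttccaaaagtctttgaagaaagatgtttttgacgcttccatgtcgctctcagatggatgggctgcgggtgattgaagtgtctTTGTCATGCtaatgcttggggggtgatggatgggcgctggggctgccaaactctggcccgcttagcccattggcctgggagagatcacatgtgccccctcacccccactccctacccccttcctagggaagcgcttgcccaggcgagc
The 2 highest ranking promoters with no match to the octamer were LOC100131496 (chr20:47318252-47318501, plus strand), a gene with no protein name, and TFAP2A (chr6:10419660-10419909, minus strand), a trophectoderm and neural crest transcription factor. The shared region at LOC100131496 lay 166 bp from the TSS, and that at TFAP2A is chr6:10415033-10417943 in hg19. These 2 sequences need not be bound sequence.
LOC100131496: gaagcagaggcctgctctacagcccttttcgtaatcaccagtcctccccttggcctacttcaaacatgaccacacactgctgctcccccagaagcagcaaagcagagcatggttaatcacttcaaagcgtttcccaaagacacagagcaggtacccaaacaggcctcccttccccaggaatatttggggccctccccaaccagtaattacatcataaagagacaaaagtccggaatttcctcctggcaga
TFAP2A: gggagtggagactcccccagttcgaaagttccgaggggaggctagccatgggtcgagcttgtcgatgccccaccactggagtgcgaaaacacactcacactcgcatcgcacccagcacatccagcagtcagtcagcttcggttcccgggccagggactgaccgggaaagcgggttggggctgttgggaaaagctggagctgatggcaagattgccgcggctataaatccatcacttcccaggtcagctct

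The PIPOX match began 211 bases before the gene start and ran into a composite match on the same strand that began 207 bases before it. The octamers of H2BC4, H2BC8 and H2BC17 began 123, 48 and 149 bases before the start, and the composite matches of NANOG and HOXB1 began 117 and 148 bases before it. At PIPOX the shared region had 125 tags at 6.09 times the background in H9, and 58 tags at 21.3 times the background in NT2/D1. At H2BC4 it had 129 tags in H9 and 20 in NT2/D1, at H2BC8 121 and 16, and at H2BC17 116 and 11. At NANOG it had 71 tags in H9 and 23 in NT2/D1, and at HOXB1 69 and 38. Tag counts are not normalized for depth, so a count is read only within its own list, and the tags, folds and scores of peaks were taken from the authors' lists as they stand. The histone H2B genes form a multi-copy family, though the H2B promoters shown above differ in sequence. How tags that fit several copies were assigned is not given in the sources used here.

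Depth and calling settings differed between the lists. The H9 OCT4 library had 77649240 unique tags and the NT2/D1 library 10218752, a ratio of 7.60, with 58012070 and 6479071 in their IgG libraries. Per the file headers, H9 was called with a band width of 2000 and a model fold of 3, NT2/D1 with 200 and 5, both at a p-value cutoff of 0.001. Line, depth, control library and settings cannot be told apart in the shares below. The source names of the NT2/D1 OCT4 and NANOG samples are exchanged relative to their titles. The title, the description and the file header name OCT4 for the library used here. Of H9 OCT4 peaks, 26.1% had a partner in it, against 8.34% in the library whose source name reads OCT4. These shares were not used to choose the library, and they cannot say which name is right.

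Strong OCT4 peaks had a partner in the other line more often than weak ones. In H9, 7714 peaks (26.1%, interval 25.6 to 26.6) overlapped an NT2/D1 peak, while 7881 NT2/D1 peaks (17.1%, interval 16.7 to 17.4) overlapped an H9 peak. Shared H9 peaks had a median of 49 tags (quartiles 34 and 75) and unshared ones 29 (21 and 40). In NT2/D1 the medians were 13 tags (9 and 20) and 7 (5 and 10). The median tag percentile within the list was 75.5 for shared and 41.9 for unshared H9 peaks, and 81.4 and 43.7 in NT2/D1. The median fold over background was 5.22 against 4.38 in H9 and 10.8 against 8.71 in NT2/D1. The quartiles of shared and unshared peaks overlapped in every one of these measures. A false discovery rate of at most 5% by the authors' estimate was reached by 63.9% of shared and 30.2% of unshared H9 peaks, and by 60.0% and 14.7% in NT2/D1.

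Split into tag deciles, the shared part went from 4.56% of the weakest to 65.1% of the strongest H9 peaks, and from 3.16% to 58.3% in NT2/D1. It was higher in each decile than in the one below it in both lists. With a reciprocal overlap of at least 50%, the highest decile was shared in 31.2% of H9 and 44.7% of NT2/D1 peaks. By the score, a rescaled log10 p-value of the peak caller, the highest decile held 71.1% and 68.8% shared peaks. Of the 100 highest scoring peaks 98 were shared in each list.

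**Figure D1:**
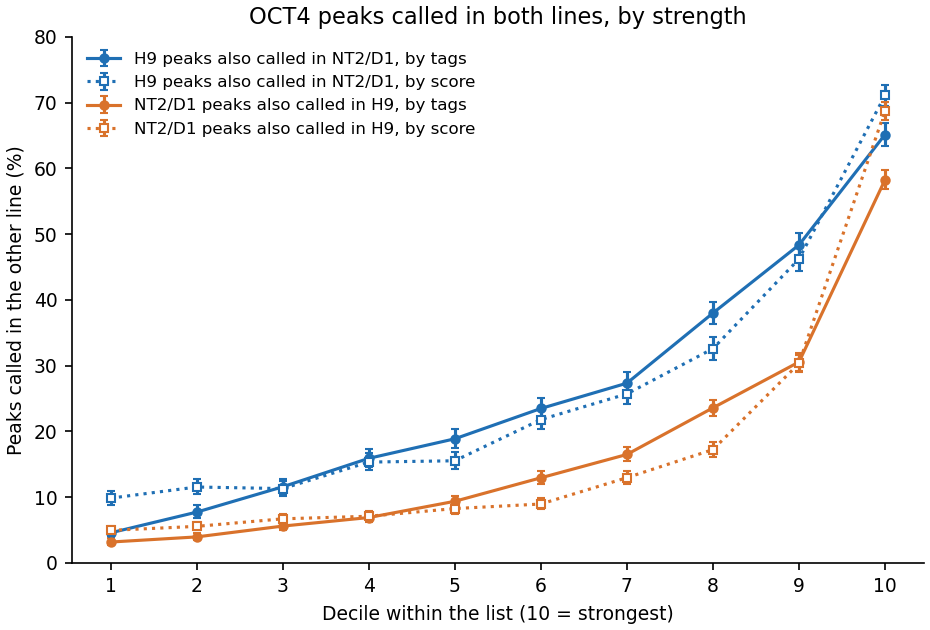
Percent of OCT4 peaks that overlap a peak of the other line (vertical axis) by decile of tags (filled circles, solid lines) or score (open squares, dotted lines) within the own list (horizontal axis); bars are 95% Wilson intervals. The highest tag decile stands at 65.1% in H9 (blue) and 58.3% in NT2/D1 (orange), and the lowest at 4.56% and 3.16%.

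The order of strength was kept in part at the shared regions. Across the 7659 regions, the Spearman rank correlation between the lists was 0.385 for tags, 0.414 for score and 0.438 for fold, given as a description, since regions of 1 pair of libraries are not replicates. Shared regions in the highest H9 tag decile had a median NT2/D1 percentile of 92.2 (quartiles 78.1 and 98.0), and those in the lowest H9 decile 62.7 (32.9 and 81.4). The position of the summit was close. Over 7936 overlapping pairs the summits lay a median of 35.5 bp apart (quartiles 15 and 92), and 76.8% lay within 100 bp. Most shared regions (96.5%) joined 1 peak of each list, and in 52.9% of pairs the NT2/D1 peak lay inside the H9 peak.

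The tags were also set against the difference in depth. The weakest NT2/D1 peak held 5 tags, and an H9 peak needs 38 tags to keep that number when scaled by unique tags, if the enrichment were equal. H9 peaks with 38 tags or more (11817, or 40.0%) had an NT2/D1 partner in 44.7% (interval 43.8 to 45.6), and those below in 13.7% (13.2 to 14.2). The median unshared H9 peak scales to 3.82 tags and the median shared one to 6.45. The split uses the same tags as the deciles, and the part of depth in the shares was not tested.

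Among the peaks with most tags, the unshared ones were wide and low in fold. Of the 100 H9 peaks with most tags 73 were shared, and the other 27 had a median width of 2083 bp and fold of 3.56, against 1393 bp and 12.4 for the shared ones. In NT2/D1, 92 of the top 100 were shared, and the other 8 had a median width of 1546 bp and fold of 4.65, against 770.5 bp and 19.8. Over the whole lists it was the shared peaks that were wider, with medians of 506 and 380 bp in H9 and 351 and 264 bp in NT2/D1. Within the highest tag decile the order was the opposite, with 824 bp for shared and 934 bp for unshared peaks in H9 and 500 and 633 bp in NT2/D1. The share with a partner was 5.14% in the narrowest and 52.0% in the widest decile of H9 peaks, and 8.99% and 34.8% in NT2/D1. Width moves with tags and with the chance of an overlap, and its part in the shares was not tested.

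The classes differed little in their median distance to a TSS, and most in how promoters were spread over strength. The median distance was 50.1 kb for shared, 42.0 kb for H9-only and 39.4 kb for NT2/D1-only regions. Regions within 1 kb of a TSS made up 11.5% (interval 10.8 to 12.2) of shared, 10.2% (9.76 to 10.6) of H9-only and 12.2% (11.9 to 12.6) of NT2/D1-only regions. Regions that overlapped a TSS made up 5.71%, 1.45% and 4.29%. Shared regions are longer by construction, with a median of 574 bp against 380 and 264 bp, which raises the chance of an overlap. Among NT2/D1 peaks without a partner, the part within 1 kb of a TSS was 4.54% in the lowest tag decile and 30.8% (28.8 to 32.9) in the highest. Among NT2/D1 peaks with a partner the lowest decile stood at 10.96%, and the highest decile had an interval of 8.93% to 11.2%. In H9 the unshared peaks stood at 5.10% in the lowest decile, 12.7% in the seventh and 9.21% in the highest. The shared H9 peaks stood at 14.1% in the lowest, 21.5% in the second and 6.70% in the highest.

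**Figure D2:**
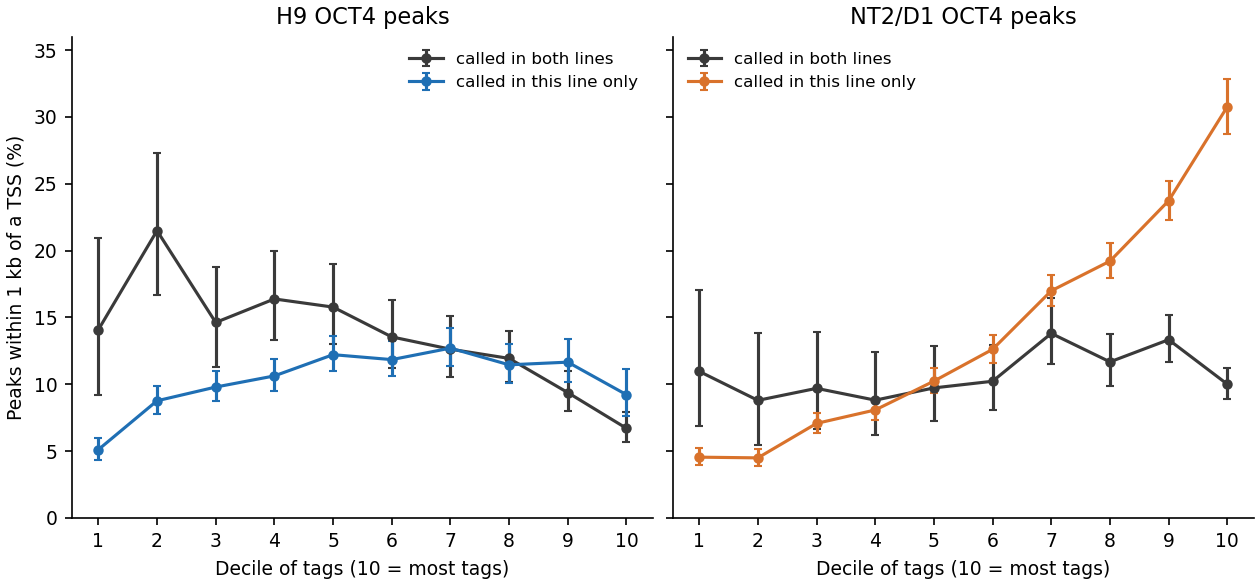
Percent of OCT4 peaks within 1 kb of a TSS (vertical axis) by tag decile within the list (horizontal axis), for peaks called in both lines (dark) and in one line (coloured), in H9 (left) and NT2/D1 (right); bars are 95% Wilson intervals. The unshared NT2/D1 peaks reach 30.8% in the highest decile, where the interval of the shared NT2/D1 peaks runs from 8.93% to 11.2% and the unshared H9 peaks at 9.21%.

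Few of the unshared peaks were near misses. An NT2/D1 peak lay within 1 kb of 8.28% of unshared H9 peaks, with a median gap of 16.6 kb, and an H9 peak lay within 1 kb of 3.89% of unshared NT2/D1 peaks, with a median gap of 33.5 kb.

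SOX2 and NANOG peaks were most frequent at the shared OCT4 regions. A SOX2 peak of H9 lay at 64.9% of shared, 24.8% of H9-only and 3.53% of NT2/D1-only regions, and a NANOG peak of H9 at 69.8%, 32.8% and 7.57%. A SOX2 peak of NT2/D1 lay at 30.3%, 3.75% and 5.13%, and a NANOG peak of NT2/D1 at 23.6%, 3.05% and 4.78%. All 4 other lists had a peak at 15.6% of shared regions (interval 14.8 to 16.4), 0.627% of H9-only and 0.360% of NT2/D1-only regions. None of them had one at 18.5%, 59.0% and 84.8%. Peaks were counted on the merged regions, and the longer shared ones (median 574 bp against 380 and 264 bp) have more chance of an overlap. The low shares at NT2/D1-only regions held for the SOX2 and NANOG lists of NT2/D1 itself. One IgG library served all 3 H9 lists, while the NT2/D1 OCT4 list had a control of its own, and its part in these shares was not tested.

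**Figure D3:**
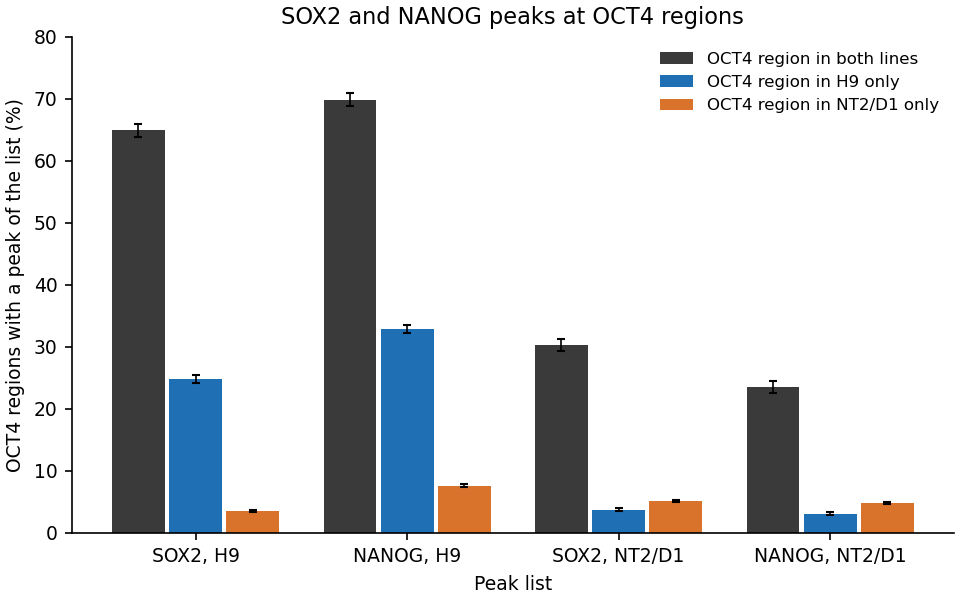
Percent of OCT4 regions that hold a SOX2 or NANOG peak (vertical axis) of each list (horizontal axis), for regions shared by the lines (dark), of H9 (blue) and of NT2/D1 (orange); bars start at 0 and error bars are 95% Wilson intervals. Shared regions stand highest for each list, from 69.8% for NANOG in H9 to 23.6% for NANOG in NT2/D1.

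Because stronger OCT4 peaks held SOX2 and NANOG more often, the H9 peaks were also split by tag decile. An NT2/D1 partner was found for 10.9% of H9 OCT4 peaks with neither factor in H9, 29.0% with 1 of them and 51.0% with both. In the highest tag decile the values were 29.9% (interval 24.7 to 35.6), 49.2% (44.5 to 53.9) and 72.4% (70.5 to 74.2), and in the fifth decile 12.3%, 24.3% and 31.4%. The order was the same in every decile except the lowest, where 15.7% with 1 factor stood beside 12.5% with both (6.93 to 21.5, from 80 peaks).

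**Figure D4:**
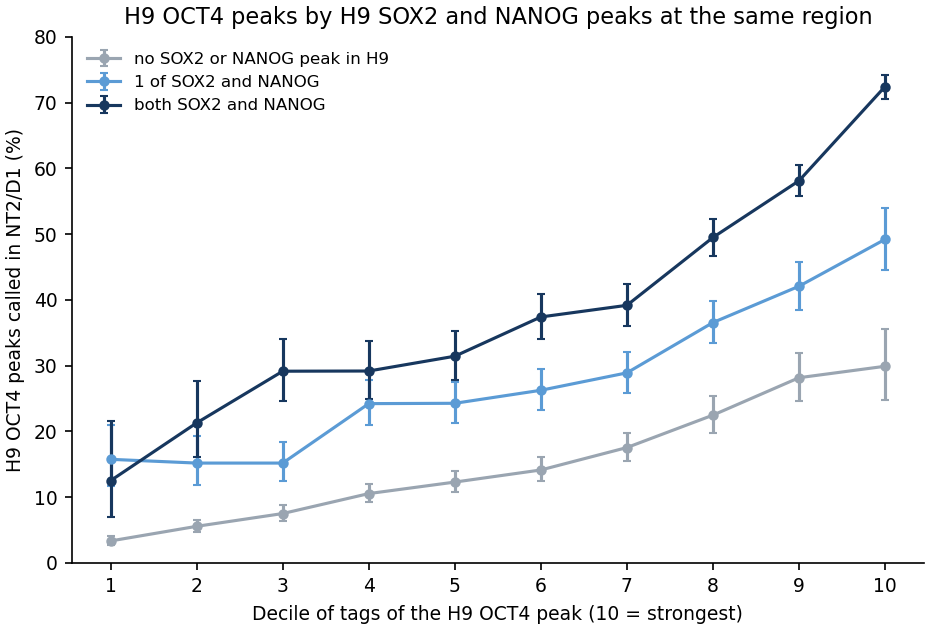
Percent of H9 OCT4 peaks with an NT2/D1 OCT4 partner (vertical axis) by H9 tag decile (horizontal axis), split by the number of H9 SOX2 and NANOG peaks at the region; bars are 95% Wilson intervals. In the highest decile the lines end at 29.9% with neither, 49.2% with 1 and 72.4% with both.

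The strongest shared regions lay mostly away from promoters, as did shared regions in general. Of the 15 with the highest tag rank in both lists, 12 lay more than 5 kb from the nearest TSS. Of all shared regions, 31.6% lay 5 to 50 kb, 42.9% 50 to 500 kb and 7.12% over 500 kb from one. All 15 held SOX2 and NANOG peaks in H9, beside 1633 of 1926 shared H9 peaks in the highest tag decile. Peaks of all 4 other lists lay at 12 of the 15, beside 15.6% of all shared regions. In all 15, the summits of the 2 lists lay within 100 bp of each other, beside 76.8% of all overlapping pairs. The first was 13.4 kb from FBRS (chr16:30689156-30690010, hg19), with 296 tags in H9 and 97 in NT2/D1 and folds of 23.4 and 22.2. The next was 40.2 kb from ETV6, an ETS family repressor, with 278 and 141 tags and folds of 21.5 and 23.8. SMAD7, an inhibitor of TGF-beta signalling, had a region at 8.79 kb with 268 and 115 tags, and LEFTY1, a secreted Nodal antagonist, one at 9.69 kb with 223 and 107. TRIM71, an RNA-binding ubiquitin ligase of the let-7 pathway, had one at 36.4 kb with 252 and 103 tags, and MIR9-2HG, the host gene of a miR-9 precursor, one at 8.19 kb with 244 and 76. DUSP6, a phosphatase of ERK, had one at 1.53 kb with 218 and 98 tags, and PODXL, a surface sialomucin of pluripotent cells, one at 47.8 kb with 212 and 114. RCC2, LOC100131496, DNAJB6, CLDN9, BUB1, LRRN2 and UBE2D2 completed the set. Over the 15 regions the tags ran from 207 to 296 in H9 and from 62 to 141 in NT2/D1.

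The H9-only regions with most tags were lower in fold than those with the highest score. By tags, the first were near PTGER4P2-CDK2AP2P2 (743 tags, fold 3.23, 3728 bp wide), FCGR2A, an Fc receptor gene (680 tags, fold 3.34, 4802 bp), and BAGE (639 tags, fold 2.74, 4239 bp). MST1P2, ZNF718, CROCC, RPH3AL, ZNF717, NRARP and WDR74 followed, and over the 10 regions the folds ran from 2.53 to 5.95. None of the 10 held both SOX2 and NANOG in H9, beside 18.97% of all H9-only regions, which are of all strengths. In the highest H9 tag decile, 2255 of 2957 peaks, shared or not, held both. Several lie at pseudogenes or multi-copy gene families, where the tag assignment is uncertain. Of all H9-only regions, 3.75% held a SOX2 peak and 3.05% a NANOG peak of NT2/D1. By score, all 10 H9-only regions held both factors in H9, with folds from 8.56 to 16.3, and 1 of the 10 held a SOX2 or NANOG peak of NT2/D1. They lay near PHF21B (201 tags, fold 12.1), PCLO, a presynaptic scaffold gene (107 tags, fold 16.3), PCDH9, a protocadherin (100 tags, fold 14.3), CBX8, a Polycomb subunit (113 tags, fold 11.4), SMIM3, NRROS, SKOR1, CXCL8, the interleukin-8 gene (136 tags, fold 11.8), FAM124A and CNMD.

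The NT2/D1-only regions with most tags lay mainly on promoters. Of the 10 highest by tags, 6 overlapped a TSS, with folds from 3.96 to 15.7 and widths from 897 to 1909 bp. They were near PDE4DIP, which had 2 of them (94 and 63 tags), C12orf57 (82 tags, fold 4.69), NUDT8 (74 tags), SEC22B, a vesicle trafficking gene (73 tags), RBM4, a splicing regulator (60 tags, fold 9.50), ATN1 (57 tags), SNHG3, a snoRNA host gene (56 tags), LEMD1 and GRIN2B, an NMDA receptor subunit (55 tags, fold 15.7). PDE4DIP and SEC22B have near-identical copies. Of all NT2/D1-only regions, 36.8% lay 5 to 50 kb, 39.5% 50 to 500 kb and 5.17% over 500 kb from a TSS. The 10 highest by score all lay more than 5 kb from a TSS and were narrow, from 228 to 611 bp, with folds from 14.6 to 25.2. They were near ZNF267 (42 tags, fold 25.2), ZNF99 (51 tags, fold 21.2), TAL2, a helix-loop-helix factor (42 tags, fold 21.4), NET1 (46 tags, fold 21.98), DOK7, VASH2, HECW1, TSR2, GARIN6 and HAS3. Of these, 9 held a SOX2 or NANOG peak in NT2/D1, and 1 held both factors in H9. Of all NT2/D1-only regions, 5.13% held a SOX2 and 4.78% a NANOG peak of NT2/D1, and 2.36% held both factors in H9. No share for regions of like score was worked out.

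Position along the genome also moved with the NT2/D1 list. NT2/D1 had 2.17 peaks per H9 peak on chromosome 1, 2.16 on chromosome 7, 2.21 on chromosome 12 and 2.12 on chromosome 21, against 0.991 on chromosome 4, 0.976 on chromosome 6 and 0.989 on chromosome X. In the first 35 Mb of chromosome 12, which hold C12orf57, ATN1, GRIN2B, ETV6 and, among genes named below, NANOG, GDF3, DPPA3, PHC1, TEAD4 and CD4, the ratio was 2.72 and 24.7% of NT2/D1 peaks were in the highest tag decile of the list. Beyond 35 Mb these values were 2.02 and 9.47%, and on all other chromosomes 1.53 and 9.09%. The median NT2/D1 peak there had 11 tags, against 8 beyond and 7 elsewhere, while the H9 medians were 35, 32 and 32. The stretch was chosen after these regions were seen, and its part in the ranks of NT2/D1 regions on it was not tested. Over chromosomes 1 to 22 and X, the H9 share with a partner ran from 32.9% on chromosome 1 to 13.4% on chromosome 22. NT2/D1 also had 40 peaks on chromosome M and unplaced contigs, among them 1 on chromosome M with 948 tags, and H9 had none there.

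Genes of the pluripotency network were among those most often near a shared region. A region was given to the nearest gene within 50 kb of its TSS, and 3214 of 19629 genes (16.4%) had a shared region, 8890 (45.3%) an H9 region and 12721 (64.8%) an NT2/D1 region. Of the genes with an H9 region, 36.2% had a shared one. Of 38 core pluripotency genes, 27 (71.1%) had a shared region, 34 an H9 and 38 an NT2/D1 region. With peaks of at most 5% FDR, 16 had a shared region, and the share of all genes under that filter is not given here. Within 5 kb the count was 20 of 38, beside 6.92% of all genes. Genes with many regions nearby have more chances of a shared one, and the median core gene had 4 regions against 1 over all genes. On the autosomes other than chromosome 8 and on chromosome X, 51 shared regions lay near 26 core genes, with a median of 85 tags in H9 and 17 in NT2/D1. Of these 51, 41 held SOX2 and NANOG in H9, 28 held at least 1 of them in NT2/D1 and 45 had summits within 100 bp. Both factors in H9 were at 55.9% of all shared regions. A SOX2 peak of NT2/D1 was at 30.3% of them and a NANOG peak of NT2/D1 at 23.6%. Of all overlapping pairs, 76.8% had summits within 100 bp. Among shared H9 peaks of the highest tag decile, which starts at 75 tags, 1633 of 1926 held both. In the ninth decile it was 965 of 1430, and the part of strength in the core count was not tested. The 81 H9-only regions near core genes held both in 14 cases, beside 18.97% of all H9-only regions.

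Both lists had OCT4 peaks near the gene of OCT4 itself and near those of its partners. At POU5F1 a region 1.09 kb from the TSS (chr6:31139542-31141186) had 296 tags in H9 and 57 in NT2/D1, folds of 10.7 and 19.7, summits 1 bp apart and peaks of all 4 other lists. SOX2 had 4 shared, 11 H9-only and 1 NT2/D1-only regions. Its strongest lay 43.9 kb away (213 tags in H9, 39 in NT2/D1) and 3.97 kb away (122 and 41). At NANOG the shared region was the one on the promoter shown above. The Nodal pathway members GDF3, CRIPTO (the co-receptor) and LEFTY2 had regions with 99 and 81, 193 and 13, and 154 and 18 tags. At CRIPTO the H9 peak was 2042 bp wide at 3 times the background, and the summits lay 1323 bp apart.

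The remaining core genes showed how unevenly the lists ranked the same region. L1TD1, an RNA-binding protein of pluripotent cells, had a region with 76 tags in both lists, which is percentile 90.4 in H9 and 99.9 in NT2/D1. DPPA4 had one with 164 tags in H9 (percentile 99.1) and 9 in NT2/D1 (62.7), and JARID2, a partner of Polycomb complex PRC2, one with 167 (99.2) and 10 (68.7). UTF1, a chromatin-bound coactivator, had the opposite order, with 54 tags in H9 (79.8) and 44 in NT2/D1 (99.2). DPPA5 was high in both, with 205 and 44 tags, as was TCF7L1, a repressor of WNT targets, with 125 and 49. ZFP42 (REX1) had 86 and 26 tags, KLF5 119 and 9, and OTX2 182 and 32. FOXD3 and JARID2 had 4 shared regions each, TRIM71 also 4, MYCN and L1TD1 3 each, and SALL4, LIN28B, ZSCAN10 and TBX3 2 each. SALL1 and CDH1 had 1 each.

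Of the core genes without a shared region, LIN28A, NODAL, DNMT3B, ESRRB and KLF4 were among the 7 that had separate regions in each line. DPPA2, DPPA3, TFCP2L1 and FGF4 had NT2/D1 regions only. LIN28A, an inhibitor of let-7 maturation, reached percentile 94.5 in H9 and 98.2 in NT2/D1 at regions that did not overlap. The highest regions of the naive state factor ESRRB stood at percentile 44.6 in H9 and 55.2 in NT2/D1, and those of KLF4 at 21.9 and 29.4. No core gene had H9 regions only.

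Genes of the signalling pathways of pluripotent cells followed. A shared region lay near 14 of 32 genes of Nodal, TGF-beta and BMP signalling, with an H9 region at 22 and an NT2/D1 region at 31. Beside SMAD7 and LEFTY1, ID3, a BMP target, had a region at 2.98 kb with 190 tags in H9 and 64 in NT2/D1. In the FGF and ERK list the count was 14 of 23 (20 in H9, 19 in NT2/D1). ETV1, an ETS factor, had 67 and 54 tags and SPRED2, an inhibitor of ERK signalling, 88 and 54. In the WNT list it was 17 of 30 (26 and 26). SFRP2, a secreted WNT antagonist, had 176 and 64 tags at 0.682 kb, WNT3, a ligand, 173 and 62 at 45.8 kb, and AXIN2, a negative regulator, 155 and 29 at 10.6 kb. All 3 shares are above the 16.4% of all genes, and the lists also had more H9 regions than the 45.3% of all genes.

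Lineage regulators had many regions in H9. The counts below stand beside 16.4% of all genes with a shared, 45.3% with an H9 and 64.8% with an NT2/D1 region. In the neuroectoderm list 22 of 37 genes had a shared region (36 with an H9 and 33 with an NT2/D1 region), and the median gene had 7 regions. At GBX2, a hindbrain boundary factor, a shared region ranked higher in NT2/D1, with 107 tags (percentile 99.96) against 52 in H9 (78.2), and the gene also had 8 H9-only regions, the highest at percentile 97.7, and 4 NT2/D1-only regions. At NR2F2, a nuclear receptor, a shared region ranked higher in H9, with 187 tags (99.5) against 10 (68.7). SOX21 had 121 and 41 tags. In the mesendoderm list 11 of 22 genes had a shared region (19 and 19). EOMES, a T-box factor, had 112 and 24 tags and KDR, a VEGF receptor, 89 and 25, while the highest region of MESP2 was in NT2/D1 only (35 tags) and that of HAND1 in H9 only (106 tags). In the trophectoderm list it was 8 of 16 (14 and 15). TFAP2A had 276 tags in H9 and 52 in NT2/D1, CDX2, the trophectoderm homeobox factor, 162 and 69, and TEAD4 43 and 41.

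The HOX genes were the list in which H9 exceeded NT2/D1 most. Of 38 HOX genes, 35 had an H9 region, 19 an NT2/D1 region and 11 a shared one, beside 45.3%, 64.8% and 16.4% of all genes. A further 16 had H9 regions only and none had NT2/D1 regions only, against 2103 and 5934 of all genes. HOX genes lie side by side in clusters, so these genes are not independent. HOXD11 had 2 shared regions, the one higher in NT2/D1 at 0.507 kb with 20 tags in H9 (percentile 15.8) and 21 in NT2/D1 (93.9). HOXD12 had a region at 2.29 kb with 127 tags in H9 and 26 in NT2/D1, and HOXB1 the promoter region shown above.

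The chromatin regulators held 13 of 30 genes with a shared region (20 with an H9, 27 with an NT2/D1 region). Of all genes, these shares were 16.4%, 45.3% and 64.8%. KDM4A, a histone demethylase, had 173 tags in H9 and 110 in NT2/D1 with folds of 19.4 and 29.6. PHC1, a Polycomb subunit, had 135 and 64, REST, the repressor of neuronal genes, 115 and 51 at 83 bp from its TSS, and SIN3A, a corepressor scaffold, 58 and 46. Germ cell genes stood near the background, at 4 of 23 (9 and 14). Of these, PIWIL1 had 25 tags in H9 (percentile 29.9) and 32 in NT2/D1 (98.0), and TFAP2C had its highest region in NT2/D1 only.

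Cell cycle genes had NT2/D1 regions more often than H9 regions, as did all genes. A shared region was near 3 of 20 cell cycle genes, an H9 region near 9 and an NT2/D1 region near 19. Of all genes, 16.4% had a shared, 45.3% an H9 and 64.8% an NT2/D1 region. Within 5 kb, 5 had an H9 and 17 an NT2/D1 region, beside 22.8% and 36.6% of all genes. The cyclin gene CCND3 had a shared region at 23.5 kb (160 and 30 tags). The highest regions of the inhibitor genes CDKN1C (31 tags) and CDKN1B (30 tags) and of the cyclin gene CCND2 (30 tags) were called in NT2/D1 only, and the first 2 overlapped a TSS. CDKN1B and CCND2 lie in the first 35 Mb of chromosome 12.

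The lists of other tissues were read for comparison. A shared region was near none of 20 hepatocyte genes, 5 of 20 skeletal muscle genes, 2 of 18 immune genes and 3 of 16 fibroblast genes. An H9 region was near 9, 8, 10 and 8 of them and an NT2/D1 region near 11, 16, 11 and 10. Of all genes, 16.4% had a shared, 45.3% an H9 and 64.8% an NT2/D1 region. The shared part of the muscle list (25%, interval 11.2 to 46.9) and of the fibroblast list (18.8%, 6.59 to 43.0) stood above 16.4%. Both intervals include that value. The strongest regions were those of CASQ1 (36 tags, NT2/D1 only), MYF6 (96 tags, H9 only), LCK (30 tags, NT2/D1 only), PRF1 (80 tags, H9 only) and, shared, ZAP70 (58 and 25 tags), DES (80 and 15) and POSTN, an extracellular matrix gene (70 and 41). Of the hepatocyte genes, APOA1 (12 tags, percentile 78.1) and CYP2E1 (10 tags, 68.7) had their highest region in NT2/D1 only, and G6PC1 (50 tags, 76.5) and ALB (46 tags, 72.2) in H9 only. The other leading genes, MYOG, CD4, COL6A1, S100A6 and THY1, had their highest region in 1 line only.

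**Figure D5:**
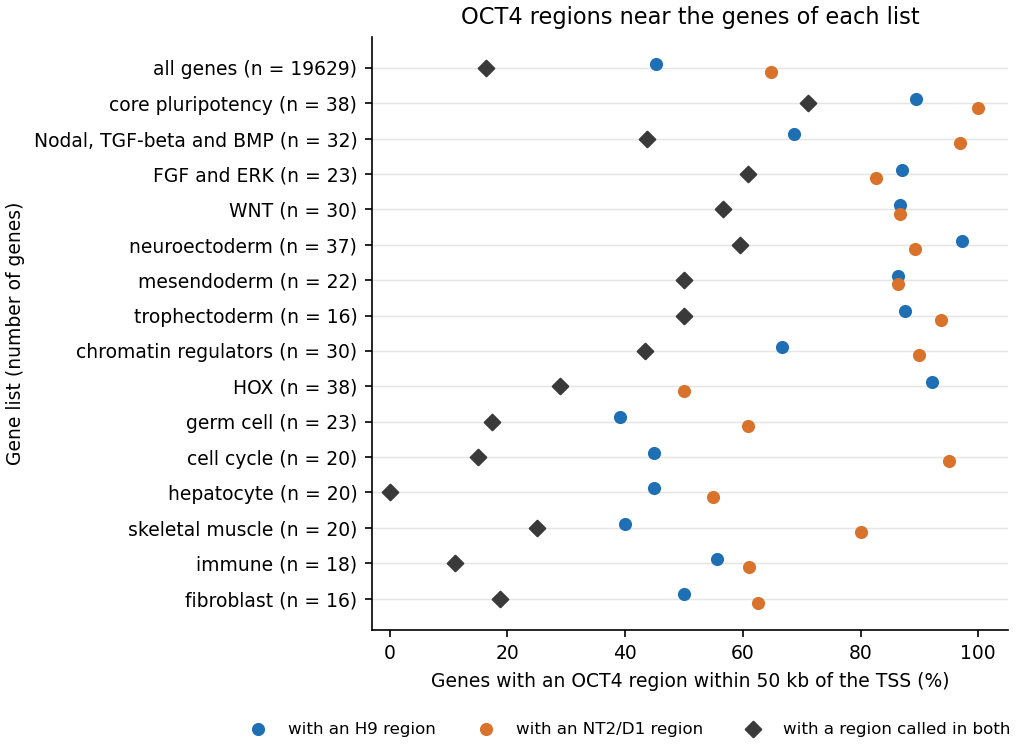
Percent of genes (horizontal axis) with an OCT4 region within 50 kb of the TSS in H9 (blue circles), in NT2/D1 (orange circles) and called in both (dark diamonds), for each gene list and for all genes (vertical axis). The core pluripotency list stands at 71.1% with a shared region and all genes at 16.4%. The HOX and cell cycle lists have their H9 and NT2/D1 points in opposite order, and all genes follow the cell cycle order.

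Some genes had strong regions in each line that did not overlap. Among the 6 that ranked highest, STAM2 had an H9 region of 103 tags at 7.28 kb and an NT2/D1 region of 29 tags on its TSS, and DENR had an H9 region of 97 tags at 0.901 kb and an NT2/D1 region of 30 tags on its TSS. DIDO1 had 120 tags in H9 at 1.62 kb and 23 in NT2/D1 at 25.9 kb. CROCC and PDE4DIP, both with near-identical copies or pseudogenes, were also among them. At the other end, MIR9-2HG had 5 shared regions, and TRIM71, ZNF281, SOX2 and KIF21A had 4 each. Other genes also had 4, among them FOXD3, JARID2, FEZF1, NR2F2 and BCL9. ZNF281, a zinc finger factor, had 152 tags in H9 and 75 in NT2/D1 at 44.7 kb, and KIF21A, a kinesin, 134 and 33 at 8.85 kb. KIF21A had no NT2/D1-only region.

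Sequence was compared at promoters, where RefSeq gives it. Of 4432 genes with a peak within 250 bp of the TSS, 3620 (81.7%) matched the RefSeq promoters of 300 bases, 250 before and 50 after the gene start. The octamer ATGCAAAT, on either strand, was in 17 of 581 promoters with a shared region (2.93%, interval 1.84 to 4.64), 15 of 631 with an H9-only region (2.38%, 1.45 to 3.89) and 39 of 2330 with an NT2/D1-only region (1.67%, 1.23 to 2.28). It was in 1.62% of the 14902 promoters of genes in the 6 lists and in 1.80% of all 27305 promoters. TTGTNATGC, which can overlap an octamer, was in 7 of 581 (1.21%, 0.585 to 2.47), 2 of 631 (0.317%) and 7 of 2330 (0.300%, 0.146 to 0.619), in 0.342% of those of listed genes and in 0.604% of all promoters. The 7 shared ones were HOXB1, KXD1, NANOG, PAFAH2, PIPOX, ROBO1 and SRRM4. ACAATG, a SOX motif, was in 9.64%, 6.18% and 6.57%, in 7.93% of those of listed genes and in 10.97% of all. GGGCGG, a GC box, was in 59.7%, 63.7% and 67.2%, in 59.8% of those of listed genes and in 44.6% of all, and the median GC content was 61.7%, 63.3% and 63.0%. The intervals for the octamer and for TTGTNATGC overlapped between the classes, and the differences were not tested. Most promoters with a peak held neither motif, and no match says only that these letters are not in this window. Of the 17 shared promoters with an octamer, 6 belong to histone genes, as do 25 of the 241 with an octamer among the 14902 promoters of genes in the lists.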

How the data were processed

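OCT4 ChIP-seq peaks of 1 H9 and 1 NT2/D1 library were analysed, with the SOX2 and NANOG lists of both lines for comparison. IgG entered only through the authors' calls. The file headers give 3 IgG libraries (1 for H9, 2 for NT2/D1) and the labels 2 IgG samples, and which NT2/D1 control is the labelled sample was not worked out. SOLiD tags (tag size 50) were called with MACS per library against IgG, without pooling, per the file headers. Coordinates are hg19, as the submitters' processing notes state. For the MACS version and the aligner, nothing is given in the sources used here. Tag counts as deposited are whole ChIP tags in a peak and are not normalized. Fold enrichment as deposited is a ratio to the background that MACS estimated for the authors. FDR values as deposited are percent. A score column was deposited under an overwritten name. It was taken to be the negative log10 of p times 10, because its lowest value was 30 and the cutoff 0.001.

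Libraries were assigned by title. Peaks were merged at 1 bp of overlap, and tags, folds and scores were ranked only within a list. TSS distances are those the authors list. A region went to the nearer of the 2 listed genes within 50 kb, and 23834 of 25014 RefSeq accessions (95.3%) matched the RefSeq table of GRCh38.p14, used for names and promoter sequences only. HOXA6 had no entry in the lists. The merging was tested on simulated peaks. Python 3.11.15, pandas 2.3.3, numpy 2.4.6 and matplotlib 3.10.9 were used.

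Members and gene lists were chosen with earlier results of these data known. The lists were core pluripotency, Nodal, TGF-beta and BMP, FGF and ERK, WNT, neuroectoderm, mesendoderm, trophectoderm, chromatin regulators, HOX, germ cell, cell cycle, hepatocyte, skeletal muscle, immune and fibroblast. Named genes were the core genes, the 15 shared and 10 unshared regions per line with the highest tag rank, up to 4 genes per other list, 6 genes with separate strong regions and 6 with most shared regions. Genes on chromosomes 8 and M were counted and not named, and some genes chosen by this rule are not reported here. The unshared regions by score, the promoters of NANOG and HOXB1, the depth-scaled split and the stretch of chromosome 12 were chosen after the values were seen. Alternatives were a 50% reciprocal overlap, summits within 200 bp, an FDR of at most 5%, lists of equal length, the rank by score, a 5 kb gene window, either listed gene and the source name in place of the title. Leaving out the widest 1% of peaks was added later.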

Additional observations from a re-analysis of the deposited data

How the results depend on the processing

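No paired analysis was possible because each factor had 1 library in each line. Of 52 alternative values 16 kept within the counting interval (for gene counts, within 1.5 times) and 36 moved. In the order H9 share with a partner, NT2/D1 share, highest H9 tag decile and highest NT2/D1 tag decile (26.1%, 17.1%, 65.1% and 58.3%), the values were 17.0%, 10.9%, 31.2% and 44.7% with a reciprocal overlap of 50%. They were 23.4%, 15.02%, 59.3% and 53.2% with summits within 200 bp, 29.0%, 32.3%, 57.0% and 59.9% at an FDR of at most 5%, and 23.6%, 24.0%, 62.6% and 64.7% with lists of equal length. With the source name in place of the title they were 8.34%, 7.31%, 30.03% and 28.8%, and without the widest 1% of peaks, an alternative chosen after seeing the data, 25.1%, 16.4%, 62.0% and 54.4%. Ranked by score, the highest deciles were 71.1% and 68.8%. The promoter share of shared regions moved to 10.2% with reciprocal overlap, 9.53% with summits, 6.92% by FDR and 8.35% by source name. That of H9-only regions moved to 10.8% with summits and 10.7% by source name, and that of NT2/D1-only regions to 20.6% by FDR, 16.9% with equal length and 4.17% by source name. Core genes with a shared region went from 27 to 16 by FDR and stayed between 18 and 29 under the other alternatives. The cause was not tested, apart from fewer peaks entering by FDR and equal length and fewer pairs by reciprocal overlap and summits. A single NT2/D1 library of 10218752 unique tags limits what an absent partner of a weak H9 peak shows.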
